A study of Homo sapiens with 4 samples.

Results

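FOXK2 occupancy was examined at 10 cyclin genes (CCND1, CCND2, CCND3, CCNE1, CCNE2, CCNA2, CCNB1, CCNB2, CCNG1 and CCNG2) in OVCAR5 cells, a human ovarian cancer line described by the submitters as high-grade serous. Both libraries were FOXK2 ChIP-seq replicates of unmodified cells in a single condition, and the peaks of each were called separately with HOMER on hg38. A peak belonged to a cyclin gene when the deposited list named that gene for the nearest transcription start site (TSS), at any distance. This gave 8 of the 12471 peaks of replicate 1 and 16 of the 27281 peaks of replicate 2. The lists differ in length, and the peaks of replicate 1 held 482307 sequence tags in all against 1722518 in replicate 2. The weakest listed peak held 16 tags in replicate 1 and 21 in replicate 2. The study sought the sites that FOXK2 occupies in ovarian cancer cells. The matched input libraries and the expression of these genes were not analysed here, so a peak describes occupancy and not a change in transcription.

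Cyclins are the regulatory subunits that switch on cyclin-dependent kinases (CDKs) and are made and destroyed at set points of the cell cycle. D-type cyclins pair with CDK4 and CDK6 in G1, E-type cyclins pair with CDK2 at the entry into S phase, and cyclins A2, B1 and B2 act in S phase and mitosis. Cyclins G1 and G2 are atypical members linked to p53 and to cell cycle arrest, and CCNG2 is a known target of FOXO forkhead factors. FOXK2 is a forkhead protein that recognises the heptamer TGTTTAC, so the strongest cyclin peaks are shown with their sequences.

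The regions printed here are the stretches covered by the peaks of both replicates at CCNE1, and shorter windows at the other cyclin peaks. They were read from hg38, 5′ to 3′ on the strand that carries TGTTTAC, with that heptamer in capitals. The first lies downstream of CCNE1 at chr19:29844372-29844582, and the second upstream of CCNE1 at chr19:29811480-29811690, both on the plus strand and outside annotated exons.

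CCNE1 downstream: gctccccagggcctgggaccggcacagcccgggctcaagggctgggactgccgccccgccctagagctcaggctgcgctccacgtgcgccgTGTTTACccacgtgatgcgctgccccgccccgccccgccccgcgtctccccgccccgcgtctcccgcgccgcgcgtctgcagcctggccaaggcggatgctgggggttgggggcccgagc
CCNE1 upstream: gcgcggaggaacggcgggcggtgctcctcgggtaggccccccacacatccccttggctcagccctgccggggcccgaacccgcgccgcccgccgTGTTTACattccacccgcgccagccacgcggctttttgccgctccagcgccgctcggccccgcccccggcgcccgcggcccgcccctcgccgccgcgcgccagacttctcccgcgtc

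The heptamers of CCND3 and CCNG1 were compared in windows of 30 bases on the minus strand. They come from the CCND3 promoter peak (chr6:42048996-42049025), the CCND3 intron peak (chr6:41970610-41970639) and the peak upstream of CCNG1 (chr5:163379744-163379773).

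CCND3 promoter: tcctcatgatgtTGTTTACttcctggatag
CCND3 intron: atacaggcttgcTGTTTACttcctgttttg
CCNG1 upstream: gtagttgaagtgTGTTTACacagtgactca

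CCNG2 had the strongest cyclin peak without the heptamer. Its part upstream of the first exon (chr4:77157130-77157206, plus strand) is shown with the E-box CACGTG, a site of basic helix-loop-helix factors, in capitals.

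CCNG2 upstream of the start: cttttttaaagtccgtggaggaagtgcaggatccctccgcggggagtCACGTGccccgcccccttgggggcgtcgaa

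FOXK2 peaks were listed for 6 of the 10 cyclin genes in replicate 1 and for 8 in replicate 2, and the 6 of replicate 1 (CCND3, CCNE1, CCNA2, CCNB2, CCNG1 and CCNG2) were all among the 8. Over the 20056 protein-coding genes of the RefSeq table, 31.3% had a peak in replicate 1, 51.7% in replicate 2 and 28.6% in both. A peak overlapping between replicates by at least 1 bp was found for 6 of the 10 cyclin genes, against 25.5% of protein-coding genes. These were all 6 genes with a peak in both replicates. Of the 5736 protein-coding genes with a peak in both, 5111 had such an overlap. A peak annotated as promoter was listed in both replicates for 4 cyclin genes (CCND3, CCNE1, CCNB2 and CCNG2), against 9.30% of protein-coding genes. These counts describe a chosen list of 10 genes and were not tested. CCND1 and CCNE2 had peaks only in replicate 2, and neither list named CCND2 or CCNB1.

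**Figure D1:**
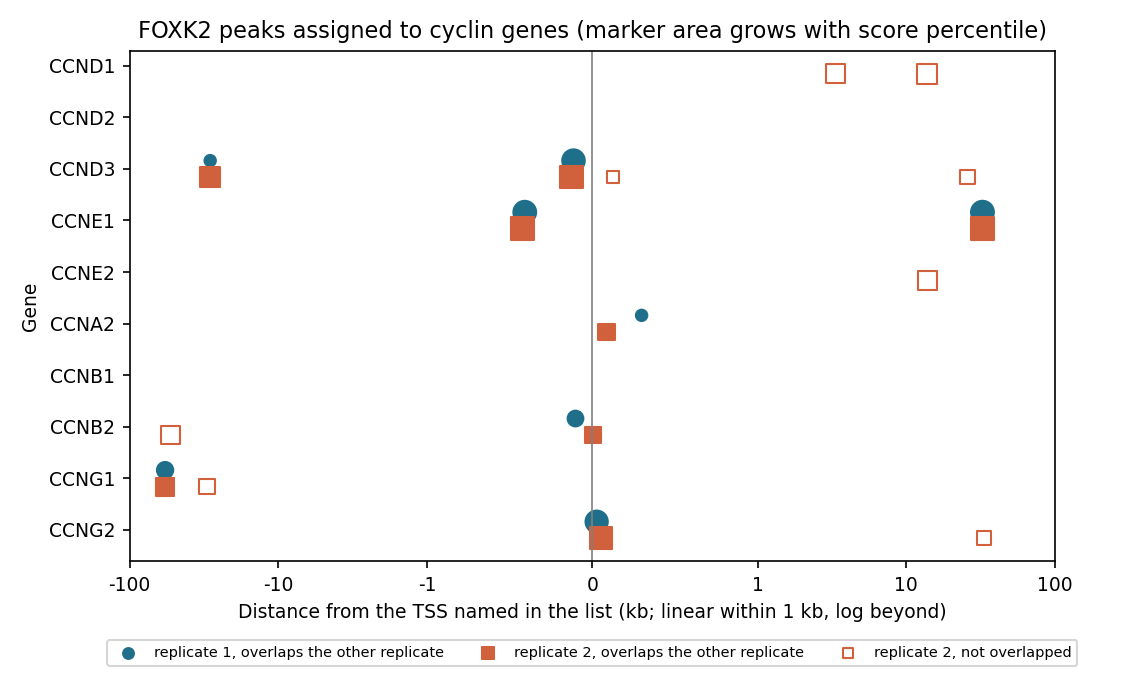
Distance of each FOXK2 peak from the TSS named in the list (kb, horizontal, linear within 1 kb and log beyond) for the 10 cyclin genes (vertical); circles are replicate 1, squares are replicate 2, filled markers overlap a peak of the other replicate, and marker area grows with the score percentile. All 8 replicate 1 markers are filled, while 8 of the 16 replicate 2 markers are open, and the largest markers are at CCNE1, CCND3 and CCNG2.

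All 8 cyclin peaks of replicate 1 overlapped a replicate 2 peak of the same gene, where 74.9% of all replicate 1 peaks had a partner. Of the 16 cyclin peaks of replicate 2, 8 had a partner, where 34.2% of all replicate 2 peaks did. The CCNE1, CCND3 promoter and CCNG2 pairs lay in the highest score decile, in which 99.5% of replicate 1 and 91.2% of replicate 2 peaks had a partner. The other 4 cyclin peaks of replicate 1 lay in deciles with shares of 48.3% to 73.9%. The 8 peaks found only in replicate 2 were weak to moderate, with 30 to 62 tags score percentiles (the percentage of the list with a lower score) from 12.6 to 65.7, and decile shares of 6.09% to 41.6%. The overlap was not equally tight. At CCNE1 and CCND3 the centres of the promoter peaks lay 15 bp and 13 bp apart. At CCNB2 they lay 106 bp apart, and at CCNA2 they lay 212 bp apart with only 22 bp in common.

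The strongest FOXK2 peak listed for a cyclin gene was at CCNE1, while the other E-type gene, CCNE2, had a single peak without a partner. CCNE1 (ENSG00000105173; GENCODE gene body chr19:29811991-29824312, plus strand) encodes cyclin E1 and had 2 peaks in each replicate, 1 at the promoter and 1 downstream of the gene. The downstream peak spanned chr19:29844372-29844582 in replicate 1 and chr19:29844344-29844600 in replicate 2, at 32483 and 32478 bp from the TSS. It scored 54.5 in replicate 1, at rank 12, and 117.2 in replicate 2, at rank 7. It was near the top of both lists.

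Among peaks more than 10000 bp from the TSS named in the list, the CCNE1 downstream peak ranked 1 of 7127 in replicate 1. In replicate 2 it ranked 1 of 16949. In GENCODE the start of a long noncoding RNA lay nearer, 2659 bp from the peak centre. Among all peaks annotated as intergenic the CCNE1 downstream peak also ranked 1, of 4257 and of 9955. Its focus ratio, the fraction of tags on the expected side of the peak centre, was 0.936 and 0.943, against list medians of 0.758 and 0.755. The 5 bp between the centres of the replicates was the smallest gap of the 8 cyclin pairs. Both the score and the focus ratio were high in each library, at the same place.

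The number of tags behind each peak was inferred from the score, taking 1 score step as 1 tag, with an exact 95% Poisson interval that covers counting error only. The CCNE1 downstream peak held 289 tags (257 to 324) in replicate 1 and 788 tags (734 to 845) in replicate 2. The CCNE1 promoter peak, at -409 and -424 bp, held 136 tags (114 to 161) and 237 tags (208 to 269), at ranks 141 and 363. In both replicates the intervals of the downstream and promoter peaks did not overlap, and the downstream peak held 2.13 and 3.32 times as many tags. Both CCNE1 peaks together accounted for 61.7% of the 689 cyclin peak tags of replicate 1 and 52.2% of the 1963 of replicate 2.

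**Figure D2:**
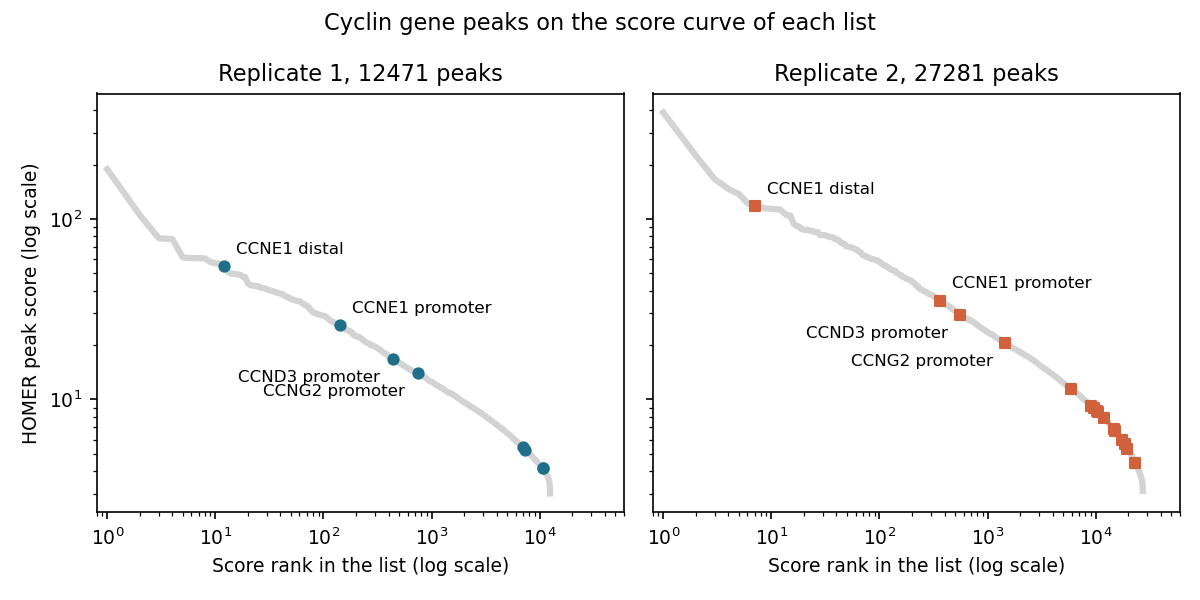
Peak score (vertical, log scale) against score rank (horizontal, log scale) for all peaks of replicate 1 (left, grey line) and replicate 2 (right, grey line), with the cyclin gene peaks as coloured markers. The CCNE1 downstream peak (labelled distal) sits at ranks 12 and 7, the promoter peaks of CCNE1, CCND3 and CCNG2 follow between ranks 141 and 1455, and the other cyclin peaks start at rank 6955 in replicate 1 and 5943 in replicate 2.

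The surroundings of the CCNE1 downstream peak held few other peaks. Within 1 megabase to each side, and apart from the 2 CCNE1 peaks, replicate 1 listed 1 peak, at a score percentile of 40.9, and replicate 2 listed 8, from 0.663 to 61.3. None of these overlapped between replicates. Input signal and copy number at CCNE1, which bear on what its ranks and tag counts mean, were not analysed here. In GENCODE the nearest gene was a long noncoding RNA on the minus strand (ENSG00000286538, chr19:29838532-29841818), whose 5′ end lay 2659 bp from the peak centre. The nearest protein-coding genes were CCNE1, with its gene end 20165 bp away, and on the other side URI1, with its start 79167 bp away. The lists assigned the peak to CCNE1 by distance alone, and whether it acts on CCNE1 was not tested.

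The base composition of the downstream peak was that of a CpG-rich region. Within 100 bp of its centre, 77.6% of bases were G or C in replicate 1 and 77.1% in replicate 2, against medians of 43.8% for intergenic peaks in both lists and of 63.2% and 63.7% for promoter peaks. Only 8 of the 4257 intergenic peaks of replicate 1 (0.188%) and 23 of the 9955 of replicate 2 (0.231%), itself included, had as high a value. It held 24 CpG dinucleotides, where the median intergenic peak held 2.

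**Figure D3:**
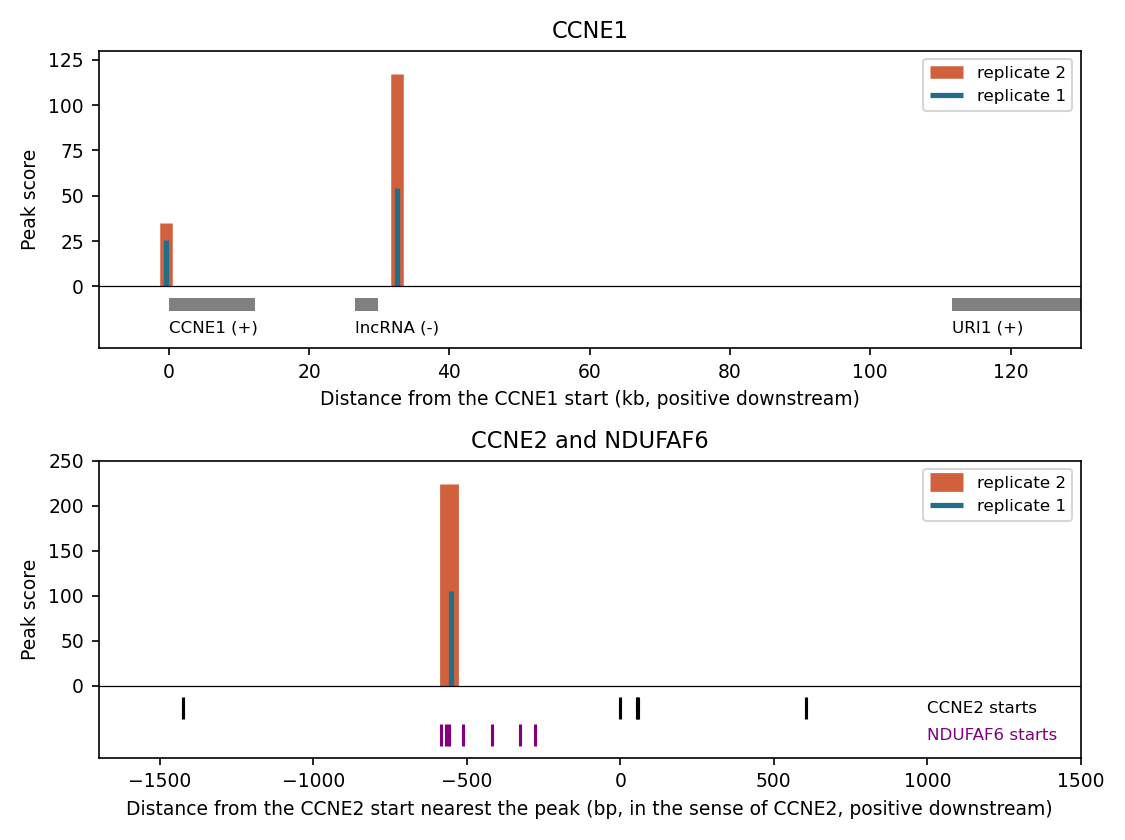
Peak score (vertical) by distance from the gene start (horizontal), for CCNE1 (top, kb) with its neighbouring genes as grey bars, and for CCNE2 and NDUFAF6 (bottom, bp) with annotated starts as ticks; wide bars are replicate 2 and narrow bars replicate 1. At CCNE1 the downstream peak is higher than the promoter peak in both replicates, and the highest peak near CCNE2 lies among the NDUFAF6 starts.

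CCNE2 (ENSG00000175305) encodes cyclin E2, the paralogue of cyclin E1. The lists gave it a single peak, in replicate 2, 13844 bp downstream of its TSS in the shared 3′ end of CCNE2 and INTS8, with 57 tags (43.2 to 73.9) and rank 10552. The nearest-TSS rule hid a much stronger neighbour. CCNE2 and NDUFAF6, a mitochondrial complex I assembly factor, are read in opposite directions from the same stretch of chromosome 8. The peak that ranked 2 in both lists, with 556 tags (511 to 604) in replicate 1 and 1507 tags (1432 to 1585) in replicate 2, was named for NDUFAF6. Its centre lay 553 bp and 558 bp upstream of the nearest annotated CCNE2 start, 871 and 866 bp downstream of the outermost one, and 6 bp and 1 bp from the nearest NDUFAF6 start. When every peak within 10000 bp of a gene body was counted whatever gene the list named, CCNE2 had a peak in both replicates and CCNG1 did not, so the number of cyclin genes with a peak in both stayed at 6. That count also left out the CCNE1 downstream peak, which is further than this from the gene. Which of these genes the peak serves was not tested.

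Among D-type cyclins, CCND3 was the one with peaks in both replicates. CCND3 (ENSG00000112576, chr6:41934934-42050357, minus strand) encodes cyclin D3. Its promoter peak lay at -114 bp in replicate 1 and -127 bp in replicate 2 from the isoform start named in the list, inside the gene by 1349 and 1336 bp from the outermost GENCODE start. It held 89 tags (71.5 to 110) at rank 438 and 198 tags (171 to 228) at rank 561, score percentiles of 96.4 and 97.9. Another peak pair, in intron 1 of the isoform given in the list, was weak in replicate 1 with 22 tags (13.8 to 33.3, score percentile 9.70) and moderate in replicate 2 with 77 tags (60.8 to 96.2, score percentile 77.6). Replicate 2 added an intron peak with 38 tags and a peak at the start of the short isoform with 30 tags.

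CCND1 (ENSG00000110092), the cyclin D1 gene and a common oncogene, had no peak in replicate 1 and 2 peaks in replicate 2. The first lay in intron 3, at 3325 bp from the TSS, with 60 tags (45.8 to 77.2) and rank 9640. The second lay just past the gene end, at 13786 bp, with 62 tags (47.5 to 79.5) and rank 9092. In the score decile of these 2 peaks, 41.6% of replicate 2 peaks overlapped a replicate 1 peak. The replicate 1 peak nearest to the CCND1 start lay at -143723 bp and was named for LINC01488. CCND2 had no listed peak: the nearest to its start were 265113 bp away, at RAD51AP1, in replicate 1 and 55304 bp away, in TIGAR with 25 tags, in replicate 2.

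Peaks at the starts of the mitotic and S-phase cyclins lay below the median score of their lists or were not listed. CCNA2, which encodes cyclin A2, had 22 tags (13.8 to 33.3, score percentile 9.70) at 298 bp, over the first exon, in replicate 1 and 45 tags (32.8 to 60.2, score percentile 42.6) at 86 bp in replicate 2. CCNB2, which encodes cyclin B2, had promoter peaks of 28 tags (18.6 to 40.5) at -102 bp and 46 tags (33.7 to 61.4) at 4 bp, at score percentiles of 36.9 and 44.4. Replicate 2 also named CCNB2 for a peak at -53035 bp, which lay inside RNF111 and held 58 tags, at a score percentile of 61.3. All of these fell below the tags of the CCNE1, CCND3 and CCNG2 promoter peaks, and their intervals did not reach those in the same replicate. CCNB1, which encodes cyclin B1, had no listed peak. The peaks nearest to its start were at -73302 bp, by SLC30A5, in replicate 1, with 21 tags, and 22315 bp downstream, by CENPH, in replicate 2, with 36 tags.

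Of the G-type cyclins, CCNG2 had a strong promoter peak and CCNG1 a distant one. The CCNG2 peak (ENSG00000138764, chr4:77157125-77157335 in replicate 1 and chr4:77157130-77157386 in replicate 2) spanned the start, at 26 and 54 bp from the TSS. It held 74 tags (58.1 to 92.9) at rank 742 and 138 tags (116 to 163) at rank 1455. Replicate 2 added a peak of 36 tags 33207 bp downstream of the CCNG2 start. The CCNG1 peak lay at -57742 and -57820 bp from its TSS in intergenic sequence, with 29 tags (19.4 to 41.6) and 53 tags (39.7 to 69.3). A further CCNG1 peak, in replicate 2 only, lay at -30123 bp with 40 tags.

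The order of the 4 strongest cyclin peaks was the same in both replicates: CCNE1 downstream, then the promoters of CCNE1, CCND3 and CCNG2. Neighbours in this order were not all separated by counting error. In replicate 1 the intervals of CCND3 and CCNG2 overlapped, and those of CCNE1 and CCND3 did not. In replicate 2 the intervals of the CCNE1 and CCND3 promoters overlapped, and those of CCND3 and CCNG2 did not. Among the other 4 peak pairs all intervals overlapped in replicate 1, with 22 to 29 tags. In replicate 2 the CCND3 intron peak stood above the CCNA2 peak and its interval met those of CCNB2 and CCNG1.

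**Figure D4:**
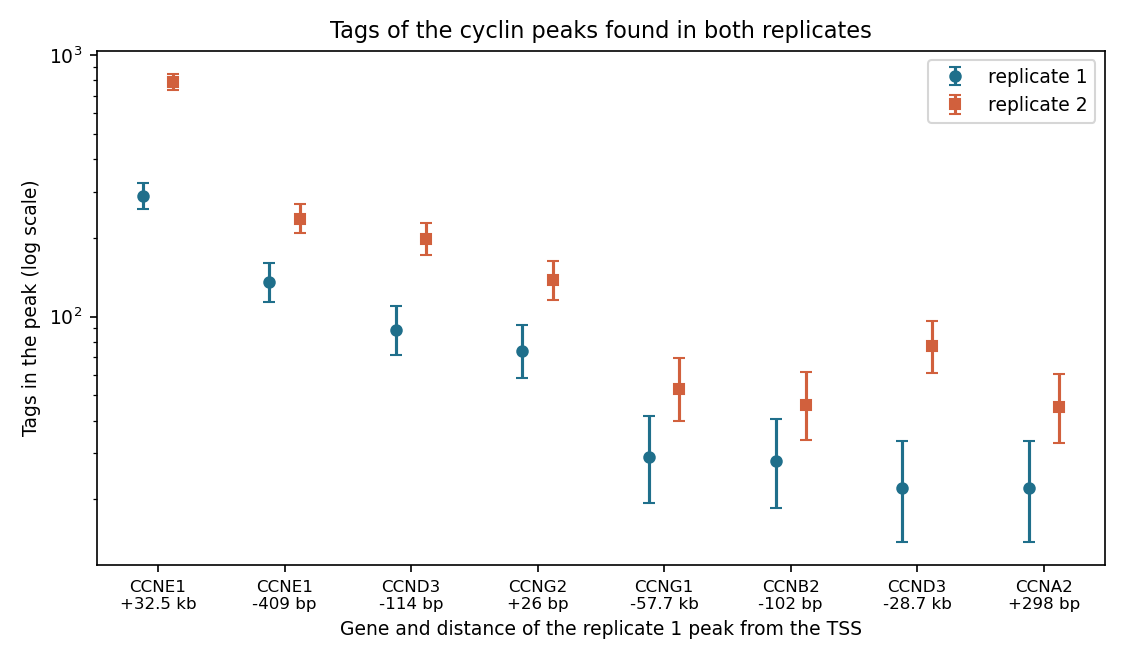
Tags (vertical, log scale) in the 8 cyclin peaks found in both replicates, ordered by replicate 1 and labelled with gene and distance from the TSS; circles are replicate 1, squares replicate 2, and bars are exact 95% Poisson intervals for counting error. The CCNE1 downstream peak is the highest in both replicates, with 289 and 788 tags, and the last 4 pairs hold 22 to 29 tags in replicate 1.

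With only 2 lists, the likeness of other genes to these cyclins could be judged by the number of peaks and the score percentile of the best peak in each list. CCNE1 was nearest to BAHCC1 (a summed difference of 0.0504 percentile points) and TFAP4 (0.0628 points) among 507 genes with the same peak numbers. CCND3 was nearest to GHSR and PDE8A, at 0.745 and 0.818 points among 221 genes. CCNG2 was nearest to ROPN1L and DNAH11, at 0.513 and 0.723 points among 1298 genes.

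Counting either strand and 100 bp to each side of the centre, the heptamer TGTTTAC was in 5 of 8 cyclin peaks of replicate 1 and 8 of 16 of replicate 2. The 5 sites of replicate 1 were also among the 8 of replicate 2, so these are not separate counts. Over all peaks, which were not matched for score, the heptamer was in 30.5% and 28.2%. At the CCNE1 downstream site (chr19:29844463-29844469) its middle base was 11 bp and 6 bp from the centre, and at the CCNE1 promoter (chr19:29811574-29811580) 8 bp and 7 bp. At the CCND3 promoter it was 2 bp and 11 bp away. In the weaker replicate 2 peaks of the CCND3 intron, CCNE2 and CCNG1 it was 4, 6 and 7 bp away, while in the replicate 1 peaks of the CCND3 intron and CCNG1 it was 47 and 71 bp away. In the CCNB2 peak at -53035 bp and the CCND3 peak at 25759 bp, both of replicate 2 only, it was 43 and 56 bp away. The looser TGTTTNC, which includes every TGTTTAC, was in 5 of 8 and 10 of 16 cyclin peaks, against 45.9% and 43.8% of all peaks.

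The peaks at the starts of CCNG2, CCNA2 and CCNB2 held neither TGTTTAC nor TGTTTNC in this window. The CCNB2 peaks each held 3 copies of CCAAT, the box bound by NF-Y, and the CCNA2 peak of replicate 2 held 1. CCAAT was in 2 of 8 and 4 of 16 cyclin peaks, against 25.0% and 24.4% of all peaks. TTTGAA, the core of the cell cycle homology region, was in 2 of 8 and 4 of 16, against 15.0% and 15.7%. The AP-1 motif TGANTCA was in 1 of 8 and 3 of 16, against 20.8% and 21.0%. The E2F motif TTTCCCGC was in none of the cyclin peaks and in 0.609% and 0.550% of all peaks.

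The E-box CACGTG was searched after the sequences had been seen. It flanked the heptamer of the CCNE1 downstream peak on both sides, at chr19:29844452-29844457 and chr19:29844471-29844476. It was also in the CCND3 and CCNG2 promoter peaks of both replicates and in the intron peak of CCND1. This made 3 of 8 cyclin peaks of replicate 1 and 4 of 16 of replicate 2, against 6.02% and 5.21% of all peaks. Since the motif was chosen after these sequences were seen, the difference is no evidence of enrichment. The shares of all peaks were not matched for base composition. A match of letters is a description of the sequence and not a binding site.

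Promoter sequences (250 bases before to 50 after the start) were taken from a RefSeq promoter table (GRCh38.p14), in which 7 of the cyclin genes matched, with 10 promoters in all. CCND1, CCND2 and CCNE2 had no entry there. TGTTTAC was in 1 of them, at CCND3, against 3.42% of 35116 promoters. TGTTTNC was in the same 1, against 18.0% of all promoters, TTTGAA in 1 (CCNB2), against 15.2%, and CACGTG in 2 (CCNB1 and CCNG2), against 7.26%. TGANTCA and TTTCCCGC were in none, against 7.71% and 1.63%. The match at CCND3 is another copy than that of the peak, since the window (chr6:42048639-42048938) does not reach the heptamer at chr6:42049007-42049013. The heptamer of the CCNE1 promoter peak also lay further upstream than its window. CCAAT was in 7 of the 10 promoters, against 34.6% of all promoters. These belong to 5 genes (CCNA2, CCNB1, CCNB2, CCNG1 and CCND3), since CCNG1 and CCND3 each count with 2 promoters and those of CCNG1 overlap.

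The other genes of the cyclin pathway were counted from lists chosen by function. Over protein-coding genes, 28.6% had a peak in both replicates, 25.5% an overlapping pair, and 4.26% peaks at a score percentile of 90 or more in both lists. Of 20 other cyclin genes, 7 had a peak in both replicates and 5 an overlapping pair, and none had an overlapping pair at a score percentile of 90 or more in both lists. Of the 10 cyclin genes described above, 3 had such a pair (CCNE1, CCND3 and CCNG2). Of 8 ubiquitin ligase subunits that act on cyclins, 5 had an overlapping pair and 1 a pair at that percentile, FBXO31, which targets cyclin D1 for destruction, at ranks 541 and 908 in its intron 2. FBXW7, which marks cyclin E for destruction, had no listed peak, nor did SKP2 and FBXO4.

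Of 21 CDK genes, 12 had an overlapping pair, against 25.5% of protein-coding genes, and 5 a pair at a score percentile of 90 or more, against 4.26% with such peaks in both lists. The score percentile of the best peak was summarised over genes with a peak in both replicates. Its median was 58.6 in replicate 1 and 79.4 in replicate 2 over all gene names. It was 67.3 and 77.9 for the 6 of the 10 cyclin genes with such peaks. That is above all gene names in replicate 1 and below in replicate 2. In neither replicate did any of these genes lie near the median. CCNE1, CCND3 and CCNG2 lay at 93.8 to 99.9 in replicate 1 and at 94.6 to 99.97 in replicate 2. CCNA2, CCNB2 and CCNG1 lay at 9.70 to 40.9 in replicate 1 and at 42.6 to 61.3 in replicate 2. The 61.3 is that of the CCNB2 peak inside RNF111. The median was 40.9 and 78.8 for the other cyclin genes, 81.7 and 88.5 for the CDK genes, and 58.6 and 81.0 for the ligase subunits. These lists were not tested. CDK6, which like CDK4 pairs with D-type cyclins, had an intron 3 peak with the heptamer in both replicates. This peak lay 81562 bp from the CDK6 TSS with rank 625 in replicate 1 and 81543 bp with rank 695 in replicate 2. The promoter peaks of CDK13, CDK19 and CDK17 ranked 449, 716 and 776 in replicate 1 and 490, 1915 and 894 in replicate 2, and none held the heptamer. CDK15 had an intron 12 peak at ranks 742 and 1069, with the heptamer in the replicate 2 window only. CDK2, the partner of E-type cyclins, and CDK1, the partner of B-type cyclins, had no listed peak in either replicate, nor did CDK5.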

How the data were processed

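The annotated peak lists of both FOXK2 ChIP-seq replicates (n = 2, OVCAR5) were used without a further threshold. By the submitters' processing notes and the methods of the study, the authors mapped single-end 50-bp reads to hg38 with Bowtie2 2.2.6 and called peaks with HOMER 4.10. How the authors scaled the deposited score is not given in the sources used here, so it was ranked only within its own list. The deposited focus ratio is a fraction of tags per peak. The distance to the TSS, in bp, was used as deposited. Tags per peak were inferred by taking the step of the scores in each list as 1 tag. All peaks came within 0.4 of a whole tag, and 99.3% (replicate 1) and 90.7% (replicate 2) within 0.25 of a tag. Tag counts and intervals rest on this step. Replicate 1 held 482307 tags in peaks and replicate 2 held 1722518. Tag intervals are exact Poisson intervals at 95%. They cover counting error only, and the spread between biological replicates is not in them.

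Peaks were counted as shared from 1 bp of overlap. Motifs were searched in hg38 within 100 bp of the peak centre, and GENCODE release 44 and the RefSeq table (GRCh38.p14) gave genes. Genes were matched by Entrez ID, by which CNTD2 in the lists was counted as CCNP. All 59 listed genes were in the RefSeq gene table. Promoter sequences came from a separate RefSeq table. The genes named were the 10 cyclin genes, the listed pathway genes with an overlapping pair at a score percentile of 90 or more in both lists, and the 2 genes most like each of the 3 best-ranked cyclin genes. The cyclin genes and lists were chosen with earlier results of these data known. No test between groups was made. The code for overlaps, motifs and tags was tested on simulated data. The input libraries were not used here. Tables were handled with pandas 2.3.3 and numpy 2.4.6, intervals with scipy 1.17.1, sequences with pysam 0.24.0 and plots with matplotlib 3.10.9 (Python 3.11.15).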

Additional observations from a re-analysis of the deposited data

How the results depend on the processing

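No paired analysis was possible because none of these results comes from a test between groups. With the upper 50% of each list by score, cyclin genes with a peak in both replicates fell from 6 to 3 (CCNE1, CCND3 and CCNG2), and 4 of 8 (replicate 1) and 10 of 16 (replicate 2) cyclin peaks were left. Within 10000 bp of the TSS there were 5 and 7 cyclin peaks, and with lists of equal length 10 in replicate 2. Each of these settings keeps fewer peaks by construction. The count of 6 genes was 8 without replicate 1 and 6 without replicate 2, and 4 with promoter peaks only, all within 1.5 times. The shares of cyclin peaks with a partner were 100% in replicate 1 and 50% in replicate 2 with the full lists. With lists of equal length they were 75% and 60%. When 50% of each peak had to overlap, 75% of replicate 1 and 37.5% of replicate 2 cyclin peaks were shared, and the pairs at CCNA2 and CCNB2 were lost. With other windows or TGTTTNC, 4 to 5 peaks of replicate 1 and 7 to 10 of replicate 2 held the motif. With 2 replicates of a single condition, the spread between replicates is poorly known, and a gene with no listed peak may hold signal below the calling threshold.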
